A study of Mus musculus with 4 samples.

Results

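The Hox genes encode the homeodomain transcription factors that give cells their place along the head-to-tail axis. Here they are the 40 protein-coding rows of the deposited table named Hoxa, Hoxb, Hoxc or Hoxd and a number, out of 54532 rows. The 40 rows carry 39 gene symbols, because Hoxd4 is listed under 2 identifiers. RNA was sequenced from 4 mouse libraries labelled as CD4+ T cells that infiltrated B16 melanomas, with 2 libraries labelled WT and 2 labelled Piezo1KO. B16 is a pigmented mouse melanoma line, and Piezo1 is a force-gated ion channel of the cell membrane. The labels give no age, strain or treatment beyond the tumour, and they do not say how Piezo1 was removed, in which cells, or whether replicate libraries are from different mice. The p-values thus reflect library-to-library spread alone, and that spread may be technical.

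Mammalian Hox genes lie in 4 clusters, Hoxa, Hoxb, Hoxc and Hoxd, on separate chromosomes. Within a cluster each gene has a number, its paralogue group, from 1 at the anterior end to 13 at the posterior end, and the genes are used in that order along the embryo. Adult cells often keep part of the Hox pattern of the body region they came from. Polycomb proteins hold unused Hox genes silent, Trithorax proteins keep used ones active, and the Pbx and Meis proteins bind DNA together with Hox proteins.

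The values are FPKM, which correct for the length of a gene and the size of a library, so levels can be compared between genes. Where a pair of values is given for a group, library 1 comes first. Whole reads recovered from the table gave between 13789266 and 15892797 assigned reads per library. Piezo1 had an FPKM of 27.8 and 27.6 in the WT libraries against 18.7 and 7.64 in the Piezo1KO libraries. Its log2 fold change was -1.14 (SE 0.41), which was short of the threshold (limma adjusted p = 0.166). The T cell label was poorly matched by the transcripts. The summed FPKM of 8 T cell markers was 1.33 and 1.35 in the WT libraries against 10.6 and 6.69 in the Piezo1KO libraries. There were 0 reads for 4 of these markers in WT 1. The summed FPKM of 8 melanocyte markers was between 6109 and 6727 per library. The levels below are thus those of melanoma-rich libraries and cannot be assigned to T cells. In such bulk samples, fewer cells of a type and less RNA per cell cannot be told apart. Mitochondrial genes took 3.86% and 2.99% of assigned reads in the WT libraries, against 20.1% and 48.3% in the Piezo1KO libraries.

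Expression of the Hox genes was concentrated in the Hoxa cluster and in 3 genes outside it. Taking a mean FPKM of 1 or more as expressed, the mark was reached by 9 of 40 rows, or 22.5%, against 9940 of 22046 protein-coding rows, or 45.1%. 6 of the 9 were Hoxa genes, among them Hoxa5, Hoxa6, Hoxa7, Hoxa10 and Hoxa11, 2 were Hoxb genes (Hoxb8 and Hoxb9) and 1 was Hoxd13. No Hoxc gene reached it. Another 10 rows had a mean between 0.1 and 1, 12 had a lower mean with at least 1 read, and 9 had 0 reads in all 4 libraries. The Hox genes together took 0.0106% of assigned reads in WT 1 (exact 95% binomial interval 0.0101 to 0.0111%), from 1654 reads. They took 0.0114% in WT 2 (0.0109 to 0.0120%), 0.00623% in Piezo1KO 1 (0.00584 to 0.00664%) and 0.00412% in Piezo1KO 2 (0.00379 to 0.00447%), from 1818, 955 and 568 reads. These shares count mitochondrial reads, which lowers them most in Piezo1KO 2. Of reads outside mitochondrial genes the Hox share was 0.0110% and 0.0118% in the WT libraries, against 0.00780% and 0.00796% in the Piezo1KO libraries. Intervals cover counting error only.

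The positions in use were mostly central and posterior. At positions 5 to 8, 4 of 11 rows reached a mean FPKM of 1, and at positions 9 to 13 it was 4 of 16. No test was made of this order, since neighbouring Hox genes share regulation and are not independent.

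The Hoxa cluster (GRCm38 chromosome 6) was transcribed up to Hoxa11, with its last gene at 0 reads. Its 11 genes held 68.1% and 73.0% of the summed Hox FPKM in the WT libraries, against 63.1% and 57.3% in the Piezo1KO libraries. Hoxa10, which patterns the lumbar spine and the uterus, was the most abundant Hox gene in each library. It had an FPKM of 7.91 and 8.73 in the WT libraries against 6.20 and 5.26 in the Piezo1KO libraries, from 510, 581, 299 and 129 reads. Both Piezo1KO values lay below both WT values. At a mean of 7.03 FPKM, Hoxa10 stood above 76.7% of protein-coding rows.

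Hoxa5, a gene of neck and chest patterning that the lung also needs, was second by its mean of 3.29 FPKM. It had an FPKM of 3.59 and 4.35 in the WT libraries against 2.31 and 2.91 in the Piezo1KO libraries. Hoxa5 was lower in both Piezo1KO libraries than in either WT library. Its neighbour Hoxa6 had 2.38 and 3.32 in WT and 0.776 and 1.37 in Piezo1KO, from 41, 59, 10 and 9 reads. The Hoxa6 groups did not overlap either, but the Piezo1KO values rest on few reads. Hoxa7, next along the cluster, had 2.73 and 2.63 in WT and 1.58 and 2.92 in Piezo1KO, so its Piezo1KO values spanned the WT values.

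Hoxa11, at the posterior end of the expressed stretch, had even levels. This gene, which patterns the forearm and is needed in kidney and uterus, had 1.80 and 1.63 in WT and 1.69 and 1.75 in Piezo1KO. The groups overlapped. Between the expressed genes stood members at lower levels. Hoxa2, Hoxa4 and Hoxa9 had means of 0.364, 0.188 and 0.289 FPKM. Hoxa9, a gene best known from leukaemia, stands next to the far more abundant Hoxa10. Hoxa3, which patterns the throat and thymus, was just under the filter, with 0.894 and 1.21 in WT and 0.676 and 0.577 in Piezo1KO. Hoxa2, Hoxa3, Hoxa4 and Hoxa9 were each lower in both Piezo1KO libraries than in either WT library. They were not tested, and 35.6% of all genes tested lay lower in this way. In WT 1, WT 2, Piezo1KO 1 and Piezo1KO 2, Hoxa2 had 15, 26, 8 and 0 reads and Hoxa4 had 8, 12, 3 and 0. A count of 3 in Piezo1KO 2 would have meant 0.226 FPKM for Hoxa2 and 0.251 for Hoxa4, whose WT 1 value was 0.255. Hoxa13, the most posterior gene, had 0 reads in all 4 libraries, and a count of 3 would have meant an FPKM between 0.0596 and 0.162.

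The Hoxb cluster (chromosome 11, 96194316 to 96368256) was expressed at its posterior side. Hoxb9, a gene of the rib-bearing region, had 3.72 and 2.08 in the WT libraries against 2.84 and 2.80 in the Piezo1KO libraries, and both Piezo1KO values lay between the WT values. Hoxb8, which can hold myeloid progenitors in an immature state, had 1.19 and 1.29 in WT and 1.60 and 4.15 in Piezo1KO, from 62, 69, 62 and 82 reads. Hoxb8 was the 1 expressed Hox gene with both Piezo1KO values above both WT values, and Piezo1KO 2 stood far above the other 3 libraries. Macrophage markers were higher in the same libraries. The summed FPKM of 6 such genes was 81.0 and 60.4 in the WT libraries against 358 and 248 in the Piezo1KO libraries, and 2 of them, C1qa and C1qb, passed the test. Piezo1KO 1 had the higher macrophage sum and the lower Hoxb8 value of the 2 Piezo1KO libraries. The part of macrophages in the Hoxb8 level was not tested.

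Hoxb6, next to the filter, had 0.671 and 1.48 in WT and 0.414 and 0.815 in Piezo1KO. Hoxb13, which lies apart from the rest of its cluster and is a gene of the tail and prostate, had 0.598 and 0.356 in WT and 0.338 and 0.968 in Piezo1KO, from 11 to 26 reads. Its values overlapped between groups. Hoxb7 had a mean of 0.429 FPKM, with 0.394 and 0.191 in WT and 0.527 and 0.605 in Piezo1KO, from 6 to 12 reads. Hoxb7 lay higher in both Piezo1KO libraries than in either WT library, and Hoxb3 lay lower. Neither was tested, and of all genes tested 33.9% lay higher and 35.6% lower in this way. From Hoxb5 to Hoxb1 the means were 0.252, 0.165, 0.0895, 0.0669 and 0.0249. The mean over all libraries was thus lower with each step from Hoxb6 to the anterior end, with at most 29 reads for any of these 5 genes in a library. The WT means did not keep this order, with Hoxb4 at 0.0961 and Hoxb3 at 0.123. All 7 reads of Hoxb2 were in Piezo1KO 2.

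The Hoxd cluster (chromosome 2, 74668310 to 74765142) held a single expressed gene at its posterior end. Hoxd13, a gene of the digits and of the genital bud, had an FPKM of 2.92 and 2.79 in the WT libraries against 2.54 and 1.83 in the Piezo1KO libraries, from 143, 141, 93 and 34 reads. Both Piezo1KO values lay below both WT values. Its immediate neighbours Hoxd12 and Hoxd11 had 0 reads in all 4 libraries, as had Hoxd9, Hoxd1 and 1 of the 2 Hoxd4 rows. For these 5 rows a count of 3 would have meant an FPKM between 0.0350 and 0.215. Evx2, a homeobox gene on the far side of Hoxd13, also had 0 reads. Hoxd8 had a mean of 0.165 FPKM, from 2 to 11 reads per library.

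The Hoxc cluster (chromosome 15, 102921103 to 103036852) was near the limit of detection. Its 9 genes had 5, 2, 2 and 6 reads in WT 1, WT 2, Piezo1KO 1 and Piezo1KO 2, against 1154, 1351, 630 and 335 for the Hoxa genes. Hoxc11, Hoxc12 and Hoxc13 had 0 reads in all libraries. The highest Hoxc value was 0.277 FPKM, of Hoxc6 in Piezo1KO 2, from 5 reads. The genes that flank the Hoxc cluster were not silent. Calcoco1 and Smug1, on either side of it, had means of 8.08 and 3.06 FPKM.

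The bases before the transcription start are shown for 2 pairs of genes of 1 cluster, one member expressed and the other at 0 reads, so that an expressed and a silent Hox gene of the same cluster can be read side by side. Both pairs were chosen after their values were seen. The sequences are from RefSeq on GRCm38.p6, 250 bases each, 5′ to 3′ on the strand of the gene, with CG pairs in capitals. Hoxd13 was read from chr2:74667975-74668224 and Hoxd12 from chr2:74674763-74675012, both on the plus strand. Hoxa10 was read from chr6:52240855-52241104 and Hoxa13 from chr6:52260881-52261130, both on the minus strand. RefSeq lists a second start for Hoxa10 that is not shown.
Hoxd13: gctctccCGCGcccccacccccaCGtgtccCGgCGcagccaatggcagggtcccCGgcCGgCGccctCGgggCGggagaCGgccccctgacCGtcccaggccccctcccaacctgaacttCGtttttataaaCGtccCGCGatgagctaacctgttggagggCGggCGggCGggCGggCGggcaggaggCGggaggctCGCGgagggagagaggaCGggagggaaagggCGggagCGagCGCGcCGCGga
Hoxd12: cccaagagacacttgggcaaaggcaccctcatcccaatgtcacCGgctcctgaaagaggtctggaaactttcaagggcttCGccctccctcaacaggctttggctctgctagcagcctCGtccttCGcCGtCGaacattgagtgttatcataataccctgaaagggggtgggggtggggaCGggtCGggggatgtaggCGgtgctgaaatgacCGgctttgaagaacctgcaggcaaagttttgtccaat
Hoxa10: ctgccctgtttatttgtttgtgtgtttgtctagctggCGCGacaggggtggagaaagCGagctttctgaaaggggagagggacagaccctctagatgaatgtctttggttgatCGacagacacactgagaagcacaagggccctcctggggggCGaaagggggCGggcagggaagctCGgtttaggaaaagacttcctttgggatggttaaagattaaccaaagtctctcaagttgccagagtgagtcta
Hoxa13: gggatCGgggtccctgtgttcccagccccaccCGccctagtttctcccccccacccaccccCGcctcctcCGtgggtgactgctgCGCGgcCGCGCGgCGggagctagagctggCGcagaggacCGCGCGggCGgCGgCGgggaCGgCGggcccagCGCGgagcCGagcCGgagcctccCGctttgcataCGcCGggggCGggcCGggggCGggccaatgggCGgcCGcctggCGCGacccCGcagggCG
The number of CG pairs did not follow expression in the 4 sequences shown. The expressed Hoxd13 had 31 and the silent Hoxd12 had 10, while the expressed Hoxa10 had 7 and the silent Hoxa13 had 35. In the table of windows from 250 bases before to 50 after a start, 22 of 39 Hox symbols matched, with 24 windows. There Hoxa10 had 12 CG pairs at the start shown and 21 at its second start, and Hoxa13 had 45. Which Hoxa10 start was used was not tested. The 8 windows of expressed genes held 9 to 37 CG pairs, with a median of 18. The 6 windows of genes with 0 reads held 4 to 45, with a median of 22.5, and the median of all 32851 windows was 7. TATAAA, searched on both strands, was present in 3 of those 8 windows (Hoxa10 at its second start, Hoxb8 and Hoxd13), in 0 of the 6, and in 13.6% of all windows. TGATNNAT, the core that Hox and Pbx proteins bind together, was searched in the same way and was present in 1 of the 8 (Hoxb8), in 1 of the 6 and in 8.85% of all windows. A match is a description of the letters only.

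Each Hox cluster also holds miRNA genes, and the miR-196 family is known to act on Hox messages. All 7 annotated miRNA loci between the outermost Hox genes had 0 reads. The libraries were made for mRNA, so mature miRNAs were not measured. The mature 5′ arms of the miR-10 and miR-196 families are shown with bases 2 to 8, the seed, in capitals. They are grouped by seed, since miR-10a and miR-10b share ACCCUGU and miR-196a and miR-196b share AGGUAGU. Mir10a lies in the Hoxb and Mir10b in the Hoxd cluster, and Mir196a-1, Mir196a-2 and Mir196b lie in the Hoxb, Hoxc and Hoxa clusters.
miR-10a: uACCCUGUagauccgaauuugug
miR-10b: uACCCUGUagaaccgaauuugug
miR-196a: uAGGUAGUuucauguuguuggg
miR-196b: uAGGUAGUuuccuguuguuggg
Hoxb8 site: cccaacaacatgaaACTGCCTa
The last line is the best ungapped match to miR-196a in the Hoxb8 transcripts of GENCODE M21, with the bases opposite the seed in capitals. It lies at chr11:96284888-96284909 on the plus strand, 418 bases after the stop codon in the 3′ UTR. All 22 bases pair, 21 by Watson-Crick pairs and 1 as G:U, and the G:U pair lies within the seed. The next best match in that transcript paired 18. How much of the Hoxb8 RNA carries this site was not measured.

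Among the 9 expressed Hox genes the order of WT levels was clear only at the top. Hoxa10, at 8.32 ± 0.581 FPKM (SD, n = 2), stood above Hoxa5, at 3.97 ± 0.532 (SD, n = 2), and every Hoxa10 value of the 4 libraries exceeded every Hoxa5 value. Hoxa5, Hoxb9, Hoxd13, Hoxa6 and Hoxa7 followed, at WT means of 3.97, 2.90, 2.86, 2.85 and 2.68, and each overlapped with the next in its WT values. Hoxa11, at 1.71 ± 0.115 (SD, n = 2), lay below Hoxa7 without overlap in WT. Hoxb8 was the lowest of the 9 in WT, at 1.24 ± 0.0662 (SD, n = 2), and at 2.87 ± 1.81 (SD, n = 2) it was second to Hoxa10 in Piezo1KO, where its 2 libraries differed widely.

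**Figure D1:**
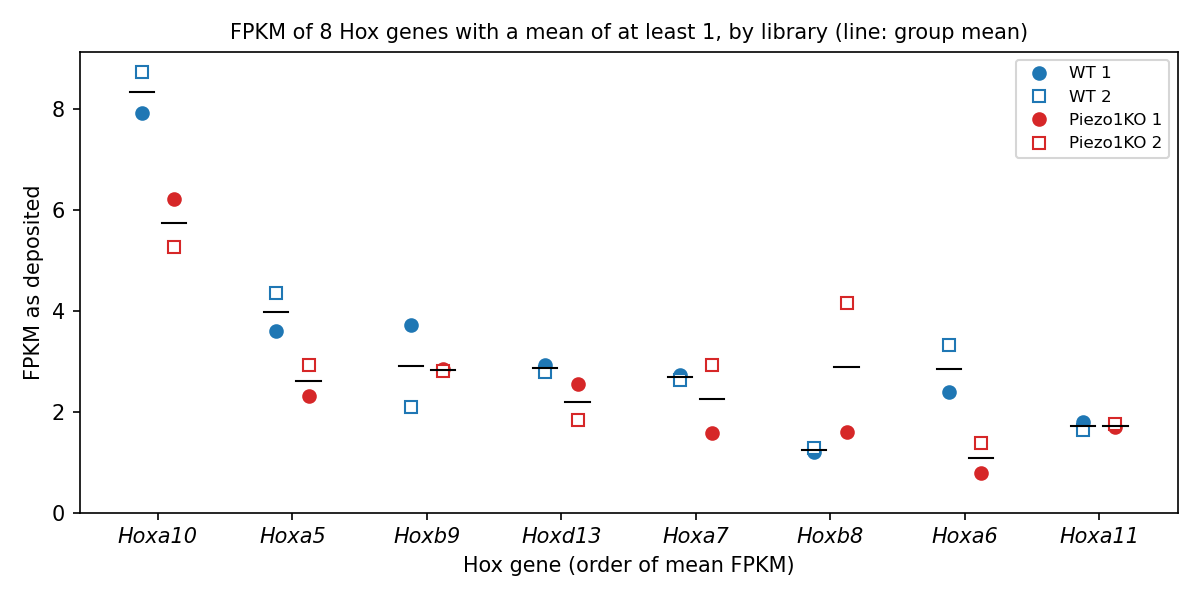
FPKM of 8 of the 9 expressed Hox genes (vertical axis, linear, from 0), with WT libraries in blue and Piezo1KO libraries in red. Circles are sample 1, open squares sample 2 and short lines group means. Hoxa10, Hoxa5, Hoxd13 and Hoxa6 have both Piezo1KO values below both WT values, and Hoxb8 has both above.

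The comparison of the groups asked whether Hox expression differed between libraries labelled Piezo1KO and WT. Both group means were above 1 FPKM for all 9 genes tested, so none passed the filter through 1 group alone. In limma on log2(FPKM + 1), 0 of the 9 passed at an adjusted p below 0.05, where 122 of 11085 genes passed, or 1.10%. At an unadjusted p below 0.05 it was 3 of 9, against 28.6% of all genes tested. Their median log2 fold change was -0.21, against -0.0059 over all genes tested, with 6 below and 3 above 0. Both Piezo1KO values were below both WT values for 4 of the 9, where 35.6% of all genes were, and above for 1, where 33.9% were. These counts are near those of all genes. For weakly expressed genes the added 1 shrinks the fold change.

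The largest differences were at Hoxa6, Hoxb8, Hoxa10 and Hoxa5, and none of them passed in this fit. Hoxa6 had a log2 fold change of -0.90 (SE 0.24; limma adjusted p = 0.133). Hoxa10 had -0.47 (SE 0.14; limma adjusted p = 0.146), which is a mean of 5.73 ± 0.662 FPKM in Piezo1KO against 8.32 ± 0.581 in WT (SD, n = 2 each). Hoxa5 had -0.46 (SE 0.17; limma adjusted p = 0.169). Hoxb8 had 0.71 (SE 0.36; limma adjusted p = 0.248), and the value was 0.21 without Piezo1KO 2. Hoxd13 and Hoxa7 had -0.29 and -0.21 (limma adjusted p of 0.313 and 0.563). Hoxb9 and Hoxa11 had 0.0026 and 0.0034, each far within its standard error of 0.24 and 0.16.

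The size of these values depended on how FPKM was scaled. After rescaling to the total of assigned reads the median of all genes moved to -0.67 and Hoxb8 was at 0.16. Hoxa6 reached -1.39 and passed (limma adjusted p = 0.00816), when 15.5% of all genes tested did. With scaling to reads outside mitochondrial genes the median moved to -0.20, and 0 Hox genes passed. Hoxb8 stood above 0 and Hoxa6, Hoxa10, Hoxa5, Hoxd13 and Hoxa7 below 0 under all 3 scalings. Without Piezo1KO 1, 4 Hox genes passed (Hoxa10, Hoxd13, Hoxb8 and Hoxa6), when 52.9% of all genes tested did. Without Piezo1KO 2, Hoxa6 passed, when 14.2% did. With 1 Piezo1KO library left, it is assumed to vary like the WT libraries.

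**Figure D2:**
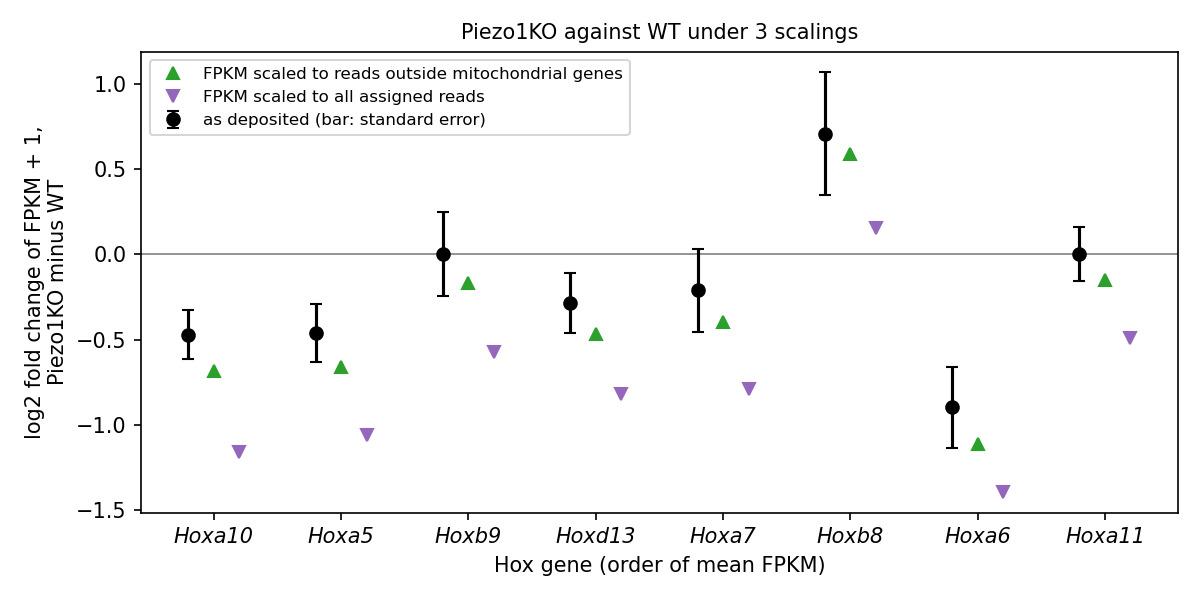
Log2 fold change of FPKM + 1, Piezo1KO minus WT, for 8 of the 9 expressed Hox genes in order of mean level. Black circles with standard errors use the FPKM as deposited, and triangles use FPKM scaled to reads outside mitochondrial genes (up) or to all assigned reads (down). Hoxb8 stays above 0 and Hoxa6 is lowest under each scaling.

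Ratios within a library do not depend on its scaling. The ratio of Hoxb8 to Hoxa10 was 0.151 and 0.147 in the WT libraries against 0.257 and 0.789 in the Piezo1KO libraries, so it was higher in both Piezo1KO libraries. Against Hoxb9, Hoxb8 had ratios of 0.320 and 0.618 in WT and 0.561 and 1.48 in Piezo1KO, with overlap. Hoxa6 to Hoxa10 gave 0.301 and 0.380 in WT and 0.125 and 0.261 in Piezo1KO, without overlap. Hoxb9 to Hoxa10 gave 0.471 and 0.238 in WT and 0.459 and 0.532 in Piezo1KO, with overlap. The ratio of Hoxd13 to Hoxa10 was 0.369 and 0.320 in WT and 0.410 and 0.347 in Piezo1KO, and that of Hoxa5 to Hoxa10 was 0.454 and 0.498 in WT and 0.373 and 0.554 in Piezo1KO, with overlap in both. These pairs were chosen after the values were seen.

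By cluster, the summed FPKM of the Hoxa genes was 21.8 and 25.1 in the WT libraries against 15.2 and 16.8 in the Piezo1KO libraries. The 2 groups did not overlap, and with 2 libraries against 2 an exact two-sided permutation test cannot go below its p = 0.333. The Hoxb sum was 6.91 and 6.23 in WT and 6.03 and 10.3 in Piezo1KO, with overlap (exact permutation p = 1). The Hoxd sum, nearly all Hoxd13, was 3.19 and 3.03 in WT and 2.81 and 1.92 in Piezo1KO (exact permutation p = 0.333). Over all Hox genes the sum was 33.2 ± 1.68 FPKM (SD, n = 2) for WT against 26.7 ± 3.66 FPKM (SD, n = 2) for Piezo1KO, a difference of -6.54 FPKM (exact permutation p = 0.333). It was -13.8 with scaling to reads outside mitochondrial genes and -22.7 after rescaling to the total of assigned reads.

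The other genes of the clusters were seen mostly beside the Hoxa genes. Of 46 other genes between the outermost Hox genes of the 4 clusters, 20 had a read and 4 had a mean FPKM of at least 1. Hotairm1, a noncoding RNA of the Hoxa cluster, was the highest, with 1.83 and 1.39 in the WT libraries against 2.45 and 7.16 in the Piezo1KO libraries, from 37, 29, 37 and 55 reads. Both Piezo1KO values were above both WT values, and Piezo1KO 2 was the highest, as for Hoxb8 (log2 fold change 1.03 with a standard error of 0.44, limma adjusted p = 0.199). The others at 1 FPKM or more were Gm27477 and Gm15050 in the Hoxa cluster and the pseudogene Gm11539 in the Hoxb cluster, and none of them passed. Hotair in the Hoxc cluster had 0 reads in all libraries, as the Hoxc genes around it had few or none. Hoxd3os1, an antisense transcript of the otherwise quiet part of the Hoxd cluster, had 0.600 and 0.325 in WT and 0.755 and 1.44 in Piezo1KO.

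Some gene models in the clusters overlap, and no source used here gives the strand setting of the counting, so reads of a gene and its antisense partner cannot be told apart there. Of the 9 expressed Hox genes, 6 share no exon base with another gene in GENCODE M21. Hoxa11 shares 35.0% of its exon bases with Hoxa11os, and Hoxa7 shares 20.4% with Hoxaas3. Their levels are uncertain to that extent. Of the 2 Hoxd4 rows, the one at 0 reads shares 52.3% of its exon bases with Hoxd3 and other transcripts, and the other has no entry in that annotation.

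The partners of Hox proteins were present. Of 9 TALE cofactors, the Pbx, Meis and Pknox homeodomain proteins that bind DNA with Hox proteins, 6 were tested and 0 passed in either direction, with a median log2 fold change of -0.23. Pbx2 had the highest level, with an FPKM of 7.11 and 7.91 in WT and 10.1 and 10.8 in Piezo1KO (log2 fold change 0.43, limma adjusted p = 0.146). Its value turned to -0.29 after rescaling to the total of assigned reads. Pknox1 had 6.33 and 6.26 in WT and 4.51 and 4.63 in Piezo1KO (log2 fold change -0.39, limma adjusted p = 0.148). Pbx3 and Meis2, at means of 4.07 and 4.08 FPKM, had -0.32 and -0.25 (limma adjusted p of 0.192 and 0.320). Meis1, a partner of Hoxa9 in leukaemia, was low beside the low Hoxa9, at a mean of 0.389 FPKM.

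The chromatin machinery that silences or maintains Hox genes was expressed throughout. All 12 genes of the Polycomb 1 list and all 11 of the Polycomb 2 list reached a mean FPKM of 1, and 0 passed in either list (median log2 fold changes of -0.14 and 0.051). Ezh2, Eed and Suz12, the core of the complex that methylates histone H3 at lysine 27, had means of 16.2, 9.86 and 29.2 FPKM. Mtf2, an accessory subunit of that complex, had 5.10 and 4.68 in WT and 2.53 and 2.53 in Piezo1KO (log2 fold change -0.74, limma adjusted p = 0.0996). Phc3 and Cbx2, members of the other Polycomb complex, had -0.75 and -0.58 (limma adjusted p of 0.118 and 0.131). Bmi1, its best known subunit, had -0.36 and Ring1 had 0.50 (limma adjusted p of 0.182 and 0.172).

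All 13 genes of the Trithorax and demethylase list were tested and 0 passed, with a median log2 fold change of -0.33. Both Piezo1KO values were below both WT values for 9 of the 13, where 35.6% of all genes tested were. They were above for 3, Dpy30, Wdr5 and Ash2l, where 33.9% were. Kmt2b, a histone methyltransferase, had 5.95 and 6.22 in WT and 2.74 and 2.13 in Piezo1KO (log2 fold change -1.05, limma adjusted p = 0.0763). Kmt2d had 5.18 and 6.10 in WT and 1.77 and 0.750 in Piezo1KO (log2 fold change -1.59, limma adjusted p = 0.0918). Kmt2a, the MLL1 methyltransferase that maintains Hox expression, had 3.83 and 4.18 in WT and 1.72 and 1.46 in Piezo1KO (log2 fold change -0.95, limma adjusted p = 0.0860), and Ash1l had -1.11 (limma adjusted p = 0.0975). These 4 genes are 9596 to 19931 bases long, against 874 to 3270 for the expressed Hox genes, and the part of gene length in their values was not tested.

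**Figure D3:**
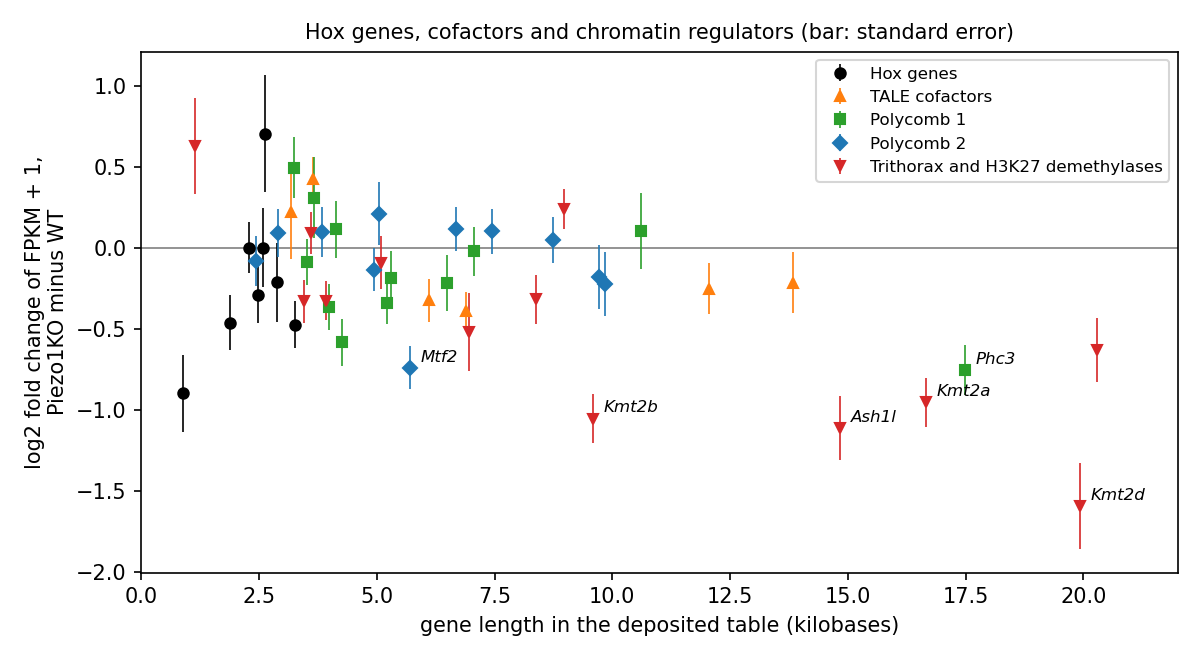
Log2 fold change of FPKM + 1, Piezo1KO minus WT, with its standard error, against gene length in kilobases for 8 of the 9 expressed Hox genes and for the tested TALE cofactors, Polycomb and Trithorax genes. The values furthest below 0 belong to Kmt2d, Ash1l, Kmt2b and Kmt2a, with -1.59, -1.11, -1.05 and -0.95, while these Hox genes are at most 3270 bases long.

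Upstream signals were present in part. Retinoic acid, made from vitamin A, switches on anterior Hox genes through the Rar and Rxr receptors. Rara, Rarg, Rxra and Rxrb had means of 8.18, 9.90, 11.2 and 18.9 FPKM, and Cyp26b1, which degrades retinoic acid, had 3.45. The enzymes that make it were low, with Aldh1a1, Aldh1a2 and Aldh1a3 at means of 0.116, 0.193 and 0.681. Of 5 tested genes of the retinoic acid list 0 passed, with a median log2 fold change of -0.22. Of the 6 Cdx and ParaHox genes, relatives of the Hox genes that include the Cdx activators of the trunk, none was tested, 4 had 0 reads in all libraries, and Cdx1 and Pdx1 had 1 and 3 reads in all.

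Several genes that flank the clusters were expressed above most Hox genes. Skap2 and Hibadh, on either side of the Hoxa cluster, had means of 8.12 and 9.81 FPKM and log2 fold changes of 0.42 and 0.36 (limma adjusted p of 0.161 and 0.158). Both flanks turned to -0.30 and -0.37 after rescaling to the total of assigned reads. Evx1, a homeobox gene beyond Hoxa13, had 0 reads, as had Hoxa13. Mtx2 and Lnpk, beside the Hoxd cluster, had means of 15.1 and 3.32 FPKM. Of 8 flanking genes tested 0 passed. Both Piezo1KO values lay above both WT values for 5, where 33.9% of all genes tested did. They lay below for 2, where 35.6% did.

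Markers of stromal and epithelial cells were at low levels beside those of melanocytes. The summed FPKM of 7 fibroblast markers was 6.64 and 4.87 in the WT libraries against 13.4 and 6.41 in the Piezo1KO libraries, and that of 6 endothelial markers was 8.24, 3.66, 6.03 and 8.56. Of the 7 fibroblast markers 4 were tested and 0 passed. Col1a1, the most abundant, had 2.96 and 2.61 in WT and 6.47 and 2.05 in Piezo1KO. Col1a2, Col3a1, Dcn, Lum and Pdgfra had both Piezo1KO values above both WT values. Of the 4 tested fibroblast markers 2 did, against 33.9% of all genes tested. Dcn, Lum and Pdgfra were at no more than 0.251 FPKM in any library and were not tested. Of 4 keratinocyte markers, 3 had 0 reads in all libraries. The Hoxa sum was highest in WT 2, where the fibroblast and endothelial sums were lowest. Erythroid markers were far higher in Piezo1KO, with a sum of 389 and 244 in WT and 5124 and 8472 in Piezo1KO, and neutrophil markers had sums of 0.457 and 1.17 in WT and 132 and 42.9 in Piezo1KO. The part of any of these cell types in the Hox levels or in the Hox differences was not tested.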

How the data were processed

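Expression was measured by RNA sequencing in 4 mouse libraries, 2 labelled WT and 2 labelled Piezo1KO, each numbered as its title has it. The deposited table gives FPKM per gene and library, with the gene length. Reads were cleaned with fastp 0.19.7 and featureCounts 1.5.0-p3 assigned them to genes, with mm10 (GRCm38) as the build, all per the submitters' processing notes. Not given in the sources used here are aligner, annotation release, strand setting and FPKM formula.

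Each library's FPKM times gene length moved in steps of 1 size, so whole reads could be read off for 100% of nonzero values (tolerance 0.05 reads). Relative to assigned reads, the library size behind the step was 1.26, 1.28, 0.962 and 0.544 in WT 1, WT 2, Piezo1KO 1 and Piezo1KO 2. A gene at 0 reads was given a floor of 3 reads, which covers counting error only.

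The 11085 genes averaging 1 FPKM or more entered a two-sided limma test (version 3.58.1, R 4.3.3; log2(FPKM + 1), intensity trend, no block), with Benjamini-Hochberg adjustment over all of them and a threshold of 0.05. Only Hox genes and fixed lists are printed. Of 40 Hox rows, 9 were tested; they stay in every count, and 1 of them is not reported here by itself. The other members with a mean FPKM of 1 or more are named with every value, and up to 4 genes per list with the smallest p are named. Other genes were named after their values were seen. The members and lists were chosen with earlier results of these data known. The alternatives tried were no filter, a minimum mean of 5, a pseudocount of 0.1, no trend, a replicate block, 2 other scalings, and each library left out. The test was tried on simulated data. Of 40 rows, 39 were found in GENCODE M21, 38 with the same coordinates and length.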

Additional observations from a re-analysis of the deposited data

How the results depend on the processing

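The 9 Hox genes counted as expressed numbered 9 without any 1 library and after rescaling to the total of assigned reads, 11 with scaling to reads outside mitochondrial genes or with at least 10 reads in every library, and 1, Hoxa10, when the minimum mean was 5. Scaling to reads outside mitochondrial genes added Hoxa3 and Hoxb6. The minimum of 10 reads added Hoxa3, Hoxb6 and Hoxb13 and left out Hoxa6. The difference in summed Hox FPKM was -6.54 and negative under every alternative run, at -13.8 with scaling to reads outside mitochondrial genes, -22.7 after rescaling to the total of assigned reads, and -3.94 to -9.13 on leaving out 1 library. The count of Hox genes that passed was 0 under 6 alternatives, 1 after rescaling to the total of assigned reads, and 0 to 4 on leaving out 1 library. The count over all genes, 122, was 1 without a filter, 68 at a mean of at least 5, 264 with the replicate block, 1718 after rescaling to the total of assigned reads and 0 to 5859 on leaving out 1 library. It was 0 without WT 1 and 0 without WT 2 (limma, 723 and 616 at an unadjusted p below 0.05), 5859 without Piezo1KO 1 and 1579 without Piezo1KO 2. Of the 122, 81 were higher and 41 lower in Piezo1KO, against 252 higher and 1466 lower after rescaling to the total of assigned reads, and 74 higher and 58 lower with scaling to reads outside mitochondrial genes.

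Signs changed for some of the log2 fold changes followed here, none of which had passed in the fit as reported. After rescaling to the total of assigned reads, Hoxb9, Hoxa11, Snf8, Rarg, Hibadh, Pbx2, Calcoco1, Ring1, Skap2 and Phf19 turned to -0.57, -0.49, -0.097, -0.62, -0.37, -0.29, -0.39, -0.22, -0.30 and -0.29. Scaled to reads outside mitochondrial genes, Hoxb9, Hoxa11 and Rarg turned to -0.17, -0.15 and -0.093. On leaving out 1 library, Hoxb9 ranged from -0.31 to 0.31, Hoxa11 from -0.040 to 0.047, Hoxa7 from -0.51 to 0.091 and Aebp2 from -0.45 to 0.0079. The causes were not tested.

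The titles give both groups the numbers 1 and 2, while the column names number the WT libraries 2 and 3, and neither is tied to a shared animal or batch. The correlation of deviations between libraries of the same title number was -0.033 over 2 pairs, too few to show whether a batch is shared. The replicate block moved the count over all genes to 264 and that of Hox genes stayed at 0. The planned count test (edgeR) on recovered reads is not reported, because the deposited values are FPKM. Hox genes near 1 FPKM rest on few reads, 9 at the least in a library, which limits their precision.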
